A study of Mus musculus with 768 samples.

Results

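The 8 genes *Postn*, *Tnc*, *Tnxb*, *Thbs1*, *Thbs2*, *Thbs3*, *Thbs4* and *Comp*, which encode periostin, tenascins and thrombospondins, were taken by their symbols from the 24490 endogenous genes of the tables, and all 8 were found. They were described in the 727 of 768 wells that held at least 10000 reads of endogenous genes. Each well held 1 sorted cell of a mammary tumor, sequenced by Smart-seq2, a plate-based protocol that reads whole transcripts, with ERCC spike-ins added as a fixed amount of foreign RNA. The cells came from 2 tumors of 14-week-old mice of the strain FVB/N-Tg(MMTVPyVT)634Mul/J, in which the MMTV promoter drives the polyoma middle T oncogene in the mammary epithelium. The sort kept cells negative for EpCAM, CD45, CD31 and NG2, so that epithelial, immune and endothelial cells and pericytes were to be left out, and all wells belong to 1 untreated group of cancer-associated fibroblasts (CAFs). The cells of a tumor were sorted into a single plate. The replicates are therefore the 2 tumors, whose differences cannot be told apart from those between plates.

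These proteins are matricellular: they are secreted into the extracellular matrix and act on cells and fibrils there, rather than carrying load as collagens do. Periostin is a fasciclin-domain protein that binds fibronectin, tenascin-C and integrin alpha-V receptors and helps the protease BMP1 activate lysyl oxidase. Tenascin-C appears in wounds and tumor stroma, and tenascin-X binds and spaces collagen fibrils. Thrombospondin-1 and thrombospondin-2 bind CD36 and CD47 and hold back the growth of blood vessels, and thrombospondin-1 activates latent TGF-beta. Thrombospondins 3 to 5 form the branch without that activity, in which thrombospondin-5 is the cartilage oligomeric matrix protein COMP, and thrombospondin-4 is known from tendon, muscle and heart.

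Wells were placed in a class by 2 genes alone. A vascular cell had *Rgs5*, a gene of the vessel wall, at 100 RPKM or more (reads per length of gene model and library size) and at least 4 times *Dcn*, which encodes decorin. A matrix cell had the reverse. The classes held 262 and 240 vascular cells and 84 and 82 matrix cells in tumors 1 and 2, while 27 and 32 wells met neither rule. These classes are ranges of 2 genes, not cell types: 14 wells with a class gene at 100 RPKM or more had a ratio between 2 and 8, and 16 had the larger class gene between 50 and 200 RPKM. In 20 wells both genes reached 100 RPKM, and 6 of these were in neither class. *Rgs5* and *Dcn* made the classes and are no findings. All 10 listed vascular markers, *Rgs5* included, were lower in matrix cells and all 10 matrix markers, *Dcn* included, were higher. Among them were *Higd1b*, *Abcc9*, *Svep1* and *Pdgfra*, which the rule did not use. Over all genes tested below, 6.66% were called lower and 9.53% higher. The marker lists were chosen with earlier results of these data known, so the counts describe the classes and do not test them.

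Median depth was 203068 and 191482 endogenous reads for vascular cells and 275379 and 232394 for matrix cells in tumors 1 and 2. Spike-ins took a median of 14.3% and 12.3% of the reads of vascular cells and 6.33% and 6.23% of those of matrix cells. Of the cells the sort was to remove, the defining endothelial genes *Pecam1* and *Cdh5* were at 0 reads in vascular cells of both tumors, while *Emcn* stood at 111 and 198 CPM (reads scaled to the library total) there. Of the 3 immune markers in the tables *Cd3e* was at 0 in all classes and *Ptprc* was read in 1 vascular cell, but *Cd68* was read in 9 and 4 vascular and 9 and 3 matrix cells. *Cspg4*, the gene of the NG2 protein that the sort was to select against, was read in 85.1% and 89.6% of vascular cells (361 and 480 CPM) and in 72.6% and 78.0% of matrix cells (65.2 and 150 CPM). The 7 epithelial markers summed to 6.04 and 40.8 CPM in vascular and 34.2 and 29.0 CPM in matrix cells.

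Where RefSeq gives a promoter, the 250 bases before the start site are shown for the members with the highest level (*Postn*), the highest share among tenascins (*Tnc*) and the largest difference between the classes (*Thbs4*). The table held 8 entries for 6 of the 8 members, on build GRCm38. Each sequence is written 5′ to 3′ along its gene, with capitals for the TATA motif TATAAA and the TEAD motif GGAATG on either strand.
Postn, second start, chr3:54360857-54361106, plus strand: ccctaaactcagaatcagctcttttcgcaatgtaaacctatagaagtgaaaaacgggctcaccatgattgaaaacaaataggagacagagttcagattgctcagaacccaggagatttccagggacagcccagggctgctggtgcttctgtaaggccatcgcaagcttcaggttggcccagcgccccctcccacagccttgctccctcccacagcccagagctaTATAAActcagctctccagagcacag
Tnc, first start, chr4:64047016-64047265, minus strand: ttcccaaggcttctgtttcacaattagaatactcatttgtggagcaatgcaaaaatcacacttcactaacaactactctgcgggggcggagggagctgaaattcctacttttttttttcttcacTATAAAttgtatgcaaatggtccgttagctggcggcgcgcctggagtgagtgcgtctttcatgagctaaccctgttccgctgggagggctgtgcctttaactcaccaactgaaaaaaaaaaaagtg
Thbs4, chr13:92794819-92795068, minus strand: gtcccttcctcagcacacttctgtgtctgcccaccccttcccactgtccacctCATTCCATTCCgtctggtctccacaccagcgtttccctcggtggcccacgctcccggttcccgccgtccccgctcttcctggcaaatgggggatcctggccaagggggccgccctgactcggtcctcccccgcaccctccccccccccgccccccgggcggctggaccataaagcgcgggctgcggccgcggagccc
The second start of *Postn*, both starts of *Tnc* and the start of *Thbs2*, which is not printed, held TATAAA, while the first start of *Postn*, also not printed, did not. The motif is one that 12.4% of 32817 promoters of the same length hold. *Thbs4* held GGAATG at 2 places that overlap by a base, on the opposite strand, against a share of 12.6% with at least 1 match. The AP-1 motif TGANTCA, present in 6.75% of promoters, was found among the members in *Tnxb* alone, and the CArG box of SRF, present in 1.47%, in none. A match of letters is a description of the window and not a bound site. *Thbs1* and *Comp* are named only.

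The comparison asked in which of the vascular and matrix cells each member is expressed. *Tnc*, *Thbs2*, *Postn* and *Thbs3* were higher in matrix cells, nearly all reads of *Thbs4* lay there, and *Thbs1* did not pass the test. *Tnxb* was higher in the summed matrix libraries through a few cells, while the share of matrix cells with a read was not above that of vascular cells. For each tumor the reads of all cells in a class were added up, which gave 4 libraries. The fit scaled these by TMM, a factor beyond the library total, which set matrix libraries higher against vascular ones than CPM does. CPM values, and whether they overlap, are given without that factor. The quasi-likelihood test of edgeR was fitted over 11578 genes with a mean of at least 1 RPKM. Of these genes 9.53% were called higher in matrix cells at an adjusted p of 0.05, and 6.66% were called lower. Of the 8 members, 7 passed the filter, with a median log2 fold change of 1.67 against -0.04 over all genes. *Thbs4* reached the filter through its matrix level alone, so that choice favoured a call in this direction and its call is given as a description. Of the other 6, which were above 1 RPKM on average in both classes, 5 were called higher and 0 lower. *Comp*, at a mean of 0.693 RPKM, was not tested. Fewer expressing cells and less RNA per cell cannot be told apart in a summed library, so the share of cells with a read is given beside each level. With spike-in totals as the library size the median of all genes moved to 0.60, and 3205 genes were higher and 533 lower in place of 1103 and 771. This scaling moves every gene by about the same amount. *Thbs1* was at 1.30 under it (adjusted p = 0.0679).

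**Figure D1:**
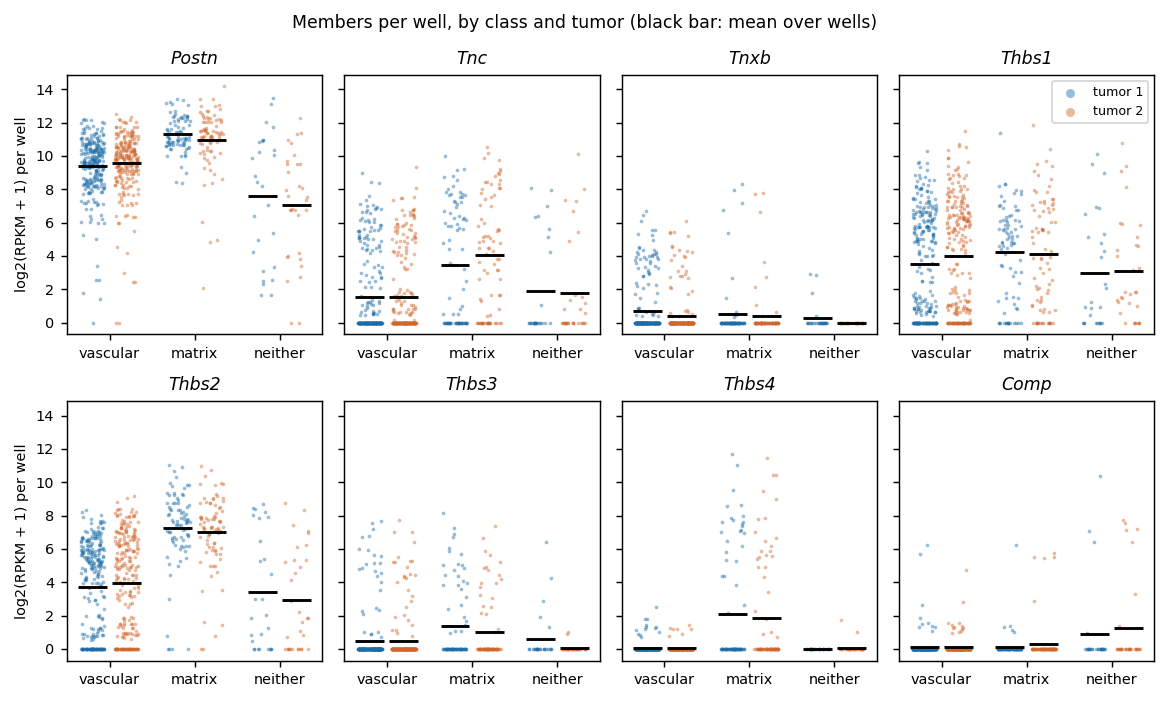
Each point is 1 well, with log2(RPKM + 1) on the vertical axis, the 3 classes on the horizontal axis, tumor 1 in blue and tumor 2 in orange, and a black bar at the mean over wells. *Postn* fills all classes, *Thbs4* rises above 5 RPKM only among matrix cells, and the highest *Comp* wells, up to 1321 RPKM, lie in neither class.

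*Postn* (chr3:54359267-54391041, build GRCm38, as for all genes here) was read in nearly every cell and had the highest level of the family in both classes. It had a read in 99.6% and 99.2% of vascular cells and in 100% of matrix cells of tumors 1 and 2. The median vascular cell held 806 and 925 RPKM, with a highest value of 4776 and 5924. The median matrix cell held 2205 and 2536 RPKM, with a lowest value of 336 and 3.18 and a highest of 10962 and 18468. The wells of both classes therefore overlapped widely, but the summed libraries did not: 11162 and 10598 CPM in matrix against 3957 and 4396 CPM in vascular cells. The difference was 1.67 on the log2 scale (SE 0.163, adjusted p = 0.00272 by edgeR). In CPM, which is without TMM, the vascular level was 35.5% and 41.5% of the matrix level.

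*Tnc* (chr4:63959785-64047015) was patchy in both classes. A read was found in 37.0% (exact 95% interval 31.2 to 43.2) and 40% (33.8 to 46.5) of vascular cells, and in 59.5% (48.3 to 70.1) and 73.2% (62.2 to 82.4) of matrix cells. The highest vascular cells held 508 and 649 RPKM and the highest matrix cells 1019 and 1503, and the median vascular cell was at 0. The summed libraries were 696 and 1160 CPM in matrix and 163 and 165 CPM in vascular cells, and did not overlap. The log2 difference was 2.79 (SE 0.274, adjusted p = 0.00275). With each cell thinned to 50000 reads, which left out 7 and 14 vascular and 5 and 4 matrix cells, the shares were 30.2% and 30.5% against 54.4% and 66.7%. In matrix cells 50% of the summed RPKM lay in 7 cells in each tumor.

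*Tnxb* (chr17:34660453-34719815) had a higher summed level in matrix cells, where a few cells carried it. Reads were found in 22.5% (exact 95% interval 17.6 to 28.1) and 13.8% (9.66 to 18.8) of vascular cells and in 10 of 84 (5.86% to 20.8%) and 9 of 82 (5.14% to 19.8%) matrix cells. The intervals of the classes overlapped in both tumors, and the gap between classes in tumor 2 was smaller than that between the tumors within vascular cells. Thinned, the shares were 19.2% and 11.5% of vascular and 7.59% and 7.69% of matrix cells. The libraries stood at 60.4 and 78.7 CPM in matrix and 31.9 and 21.4 CPM in vascular cells, a log2 difference of 1.66 (SE 0.289, adjusted p = 0.0170). This rested on a few cells: 2 matrix cells in each tumor held 50% of the summed RPKM, and the top 5 held 99.0% in both. Their values in tumor 1 were 315, 246, 145, 106 and 41.1 RPKM, and in tumor 2 they were 214, 213, 98.5, 11.6 and 5.77. In vascular cells the highest values were 105 and 67.5 RPKM. Without the highest cell of each class and tumor the matrix libraries stood at 54.0 and 28.4 CPM and the vascular ones at 29.5 and 15.2 CPM, and they overlapped in CPM. The overlap, of 28.4 with 29.5 CPM, was narrow and is without TMM, so it is not shown on the fitted scale. On the scale of single cells the mean log2(RPKM + 1) was 0.49 and 0.40 in matrix and 0.72 and 0.42 in vascular cells, so matrix cells were lower in tumor 1 and about level in tumor 2. RefSeq lists the pseudogene *Tnxa*, a partial copy, 56739 bases away from *Tnxb*, so the counts of *Tnxb* are uncertain where both sequences match. The pseudogene *Cyp21a2-ps* shares 385 bases with *Tnxb*, and without strand the reads there cannot be assigned.

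*Thbs1* (chr2:118111876-118127133), the thrombospondin that activates TGF-beta, was common in both classes, and its difference between them did not pass the test. It had a read in 71.0% and 77.1% of vascular and 82.1% and 81.7% of matrix cells, and single cells reached 2937 and 3629 RPKM in the vascular and matrix class of tumor 2. The libraries were 596 and 1260 CPM in matrix and 528 and 883 CPM in vascular cells, and they overlapped across the tumors. Within each tumor the matrix library was the higher one, with a large part of its level in 1 cell. The highest matrix cell, at 2672 and 3629 RPKM, held 36.8% and 29.9% of the summed RPKM. Without the highest cell of each class and tumor the order in CPM turned in both tumors, to 371 and 748 CPM in matrix against 496 and 764 CPM in vascular cells. These values are without TMM and lie close in tumor 2, so the turn there is not shown on the fitted scale. The log2 difference was 0.68 (SE 0.412, adjusted p = 0.350), and tumor 2 was above tumor 1 in both classes. With the tumor as a block the adjusted p was 0.0589. With the class gene at 1000 RPKM or more, which left 74 and 53 matrix cells, the difference turned to -0.04 (adjusted p = 0.949). Platelets are a known source of thrombospondin-1. The 3 platelet markers summed to 5.58 and 5.69 CPM in vascular and 8.59 and 8.39 CPM in matrix cells, but 2 of them ran in opposite directions. *Pf4* was at 4.60 and 5.57 CPM in vascular and 0.797 and 0 CPM in matrix cells. *Itga2b* was at 0.400 and 0.125 CPM in vascular and 7.17 and 8.39 CPM in matrix cells. The part of platelets in the *Thbs1* level was not tested.

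*Thbs2* (chr17:14665500-14694262), the related inhibitor of vessel growth, was higher in matrix cells. It was read in 95.2% and 97.6% of matrix cells and 75.2% and 78.8% of vascular cells. The median matrix cell held 196 and 157 RPKM and the highest 2072 and 2006, while the median vascular cell held 25.96 and 21.9 and the highest 319 and 568. The summed libraries, 2202 and 1817 CPM in matrix and 314 and 446 CPM in vascular cells, did not overlap. The log2 difference was 2.69 (SE 0.241, adjusted p = 0.00207).

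*Thbs3* (chr3:89215180-89226841) was low and scattered. It had a read in 33.3% and 25.6% of matrix cells and in 10.7% and 11.7% of vascular cells, with highest values of 283 and 162 RPKM in matrix and 207 and 214 RPKM in vascular cells. The libraries were 36.3 and 28.2 CPM in matrix and 17.4 and 13.5 CPM in vascular cells. The log2 difference was 1.35 (SE 0.303, adjusted p = 0.0381). Without the highest cell of each class and tumor the libraries stood at 27.0 and 15.8 CPM in matrix and 16.5 and 12.3 CPM in vascular cells, and they overlapped in CPM. The overlap, of 15.8 with 16.5 CPM, was narrow and is without TMM, so it is not shown on the fitted scale. The call was lost when each cell was scaled to the same total (adjusted p = 0.0589) and when the larger of both class genes decided without a gap (adjusted p = 0.0516). RefSeq places an RNA named LOC115489723 over 1308 bases of *Thbs3*, and reads there cannot be assigned to 1 of them.

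*Thbs4* (chr13:92751586-92794818) was read in a part of the matrix cells and was close to 0 elsewhere. In matrix cells 31.0% (21.3 to 42.0) and 31.7% (21.9 to 42.9) had a read, 24 and 20 cells reached 10 RPKM, and the highest values were 3318 and 2825 RPKM. In vascular cells 13 of 262 and 7 of 240 had a read, and the highest values were 4.76 and 1.68 RPKM, so the wells above 5 RPKM were all matrix cells. Thinned, the shares were 30.4% and 26.9% of matrix and 1.57% and 1.77% of vascular cells. The summed libraries held 8530 and 6484 reads (377 and 336 CPM) in matrix against 15 and 7 reads (0.273 and 0.145 CPM) in vascular cells. The fitted log2 difference was 10.98 (SE 0.350, adjusted p = 0.000194). Since the gene reached the filter on low values through matrix cells alone, the filter favoured a difference in this direction, and the fit is given as a description. At an adjusted p of 0.001, where 1.14% of all genes were higher, the other 5 members called here lost their call. In CPM the vascular level was 0.0722% and 0.0433% of the matrix level. Within matrix cells the gene was uneven, and 2 cells in each tumor held 50% of the summed RPKM.

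**Figure D2:**
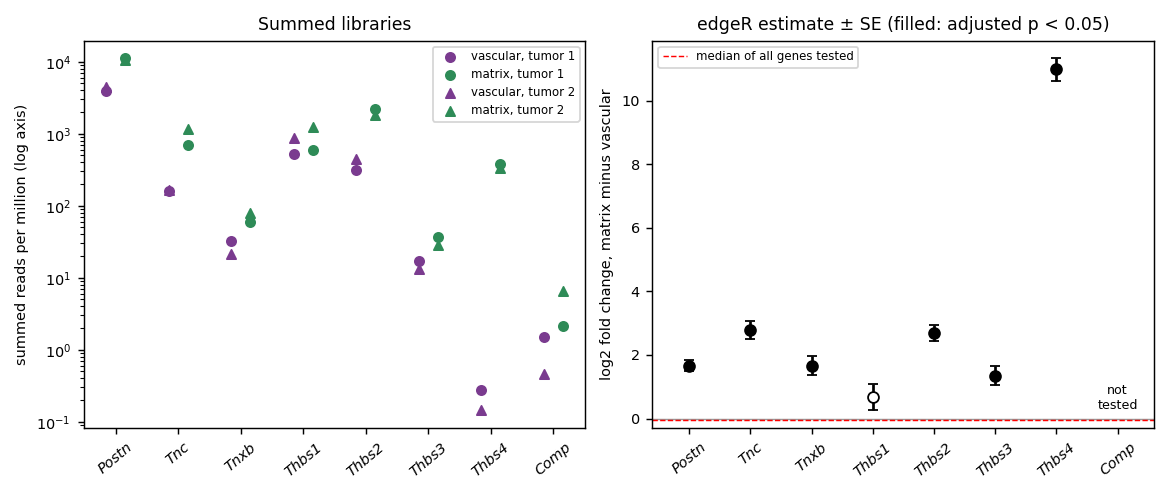
The left panel shows the CPM of each member in the 4 summed libraries on a log axis, vascular in purple and matrix in green, with circles for tumor 1 and triangles for tumor 2. The right panel shows edgeR's log2 fold change of matrix minus vascular with its SE, filled where the adjusted p was under 0.05, from 0.68 for *Thbs1* to 10.98 for *Thbs4*, beside the median of all genes at -0.04.

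*Comp* (chr8:70373548-70382066) was read in few cells of both classes. A read was found in 10 of 262 and 13 of 240 vascular and in 5 of 84 and 5 of 82 matrix cells, at 1.49 and 0.457 CPM and 2.17 and 6.58 CPM in the summed libraries. Without the filter on low genes its log2 difference was 2.38 (adjusted p = 0.233 by edgeR). In tumor 1 a single matrix cell held 93.3% of the summed *Comp* RPKM. Without the highest cell of each class and tumor *Comp* stood at 0.802 and 0.250 CPM in vascular and 0.178 and 4.42 CPM in matrix cells. The order of the classes then turned in tumor 1.

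The highest *Comp* wells were among those of neither class. There 11 of 59 wells had a read. Of the 16 wells at 10 RPKM or more, 8 were among these 59, 5 were matrix and 3 were vascular cells. The highest vascular well held 73.9 RPKM and the highest matrix well 74.9, below each of the 8 wells of neither class. Of these 59 wells, 24 carried reads of at least 3 of 5 genes listed as developmental markers, the transferrin gene *Trf*, *Mia*, *Scrg1*, *Sox9* and *Sox10*. Within the classes, 4 vascular and 6 matrix cells also did, so such cells are not confined to the wells of neither class. Of the 24, 3 of 8 in tumor 1 and 7 of 16 in tumor 2 had a *Comp* read, against 1 of the other 35 wells. Without the highest well of each tumor, the *Comp* level over all wells of neither class went from 287 to 42.9 CPM in tumor 1 and from 123 to 86.7 CPM in tumor 2. The 3 wells of tumor 1 held 1321, 134 and 83.5 RPKM, and the 7 of tumor 2 held 212, 189, 145, 137, 84.4, 8.96 and 1.58. All but the well at 8.96 RPKM had reads of all 5 markers. The wells with all 5 markers were 18, of which 9 had no *Comp* read. Of 5 listed genes known from tendon and cartilage, *Chad*, which encodes the cartilage protein chondroadherin, was read there at 416 and 226 CPM. The other 4 were low or without reads, with the tendon factor *Scx* at 12.7 and 10.2 CPM, the cartilage proteoglycan *Acan* at 0 and 1.70 CPM, *Cilp* at 0.507 and 1.70 CPM, and the tendon gene *Tnmd* at 0 CPM in both tumors. The 7 epithelial markers summed to 2551 and 217 CPM in these wells, with *Krt5* at 994 and *Krt14* at 719 CPM in tumor 1, and their part in the *Comp* level was not tested. Of the other members, *Thbs2* stood at 2.53 and 186 CPM, *Tnc* at 1.01 and 104 CPM and *Postn* at 4484 and 1037 CPM in these 24 wells. In tumor 1 a single well, at 8882 RPKM, held 81.4% of the summed *Postn* RPKM, and without the highest well of each tumor *Postn* stood at 771 and 920 CPM. *Tnc* then stood at 0 and 43.8 CPM and *Thbs2* at 1.10 and 113 CPM.

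**Figure D3:**
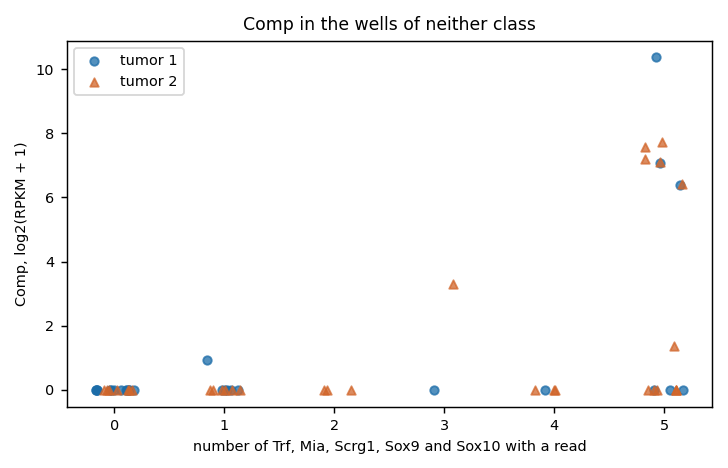
*Comp* in the 59 wells of neither class, as log2(RPKM + 1) on the vertical axis, against the number of the 5 developmental markers with a read on the horizontal axis (points spread sideways for sight). The wells above 10 RPKM all had 5 markers, and the highest stood at 1321 RPKM.

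RPKM is per length, so levels can be set beside each other across members. In vascular cells the order of the mean RPKM was the same in both tumors: *Postn* (1068 and 1211), *Thbs1* (71.3 and 121), *Thbs2* (42.8 and 63.1), *Tnc* (17.3 and 17.2), *Thbs3* (4.73 and 3.89), *Tnxb* (3.47 and 1.90), *Comp* (0.542 and 0.197) and *Thbs4* (0.0826 and 0.0354). In matrix cells *Postn* (3198 and 3255) and *Thbs2* (326 and 278) led in both tumors. *Thbs4* (110 and 98.0), *Tnc* (88.8 and 138) and *Thbs1* (86.5 and 148) followed, in an order that changed between the tumors, so these neighbours did not differ beyond the spread. *Thbs3* (13.3 and 7.31), *Tnxb* (10.3 and 6.68) and *Comp* (0.955 and 2.36) closed the order, and the ranges of *Thbs3* and *Tnxb* overlapped. A vascular cell held a read of 3.25 and 3.29 members on average and a matrix cell of 4.19 and 4.27. At least 5 members were read in 39.3% and 41.5% of matrix cells and in 13.4% and 10.8% of vascular cells, which were also shallower.

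**Figure D4:**
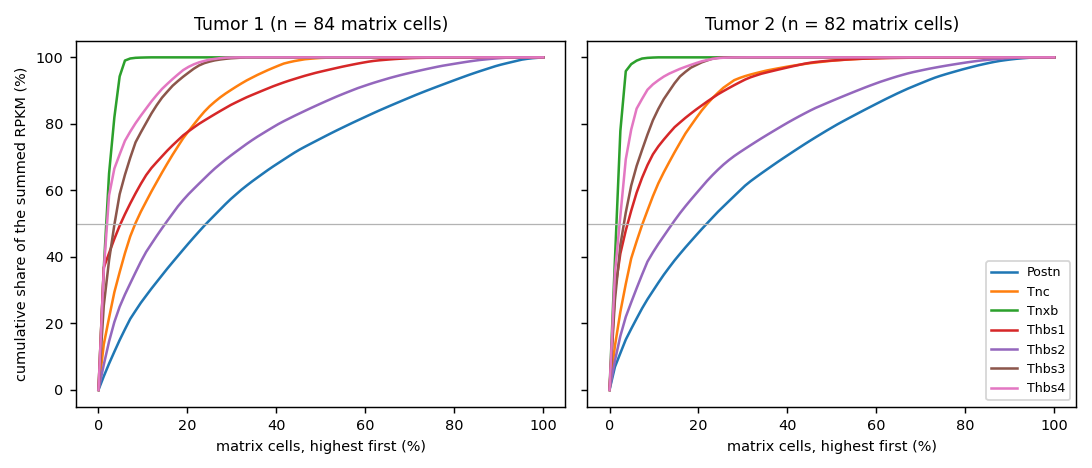
Cumulative share of each member's summed RPKM (vertical axis, percent) over the matrix cells ranked from the highest (horizontal axis, percent), for tumor 1 (84 cells) and tumor 2 (82 cells), without *Comp*. The curves of *Tnxb* and *Thbs4* reach 50% with 2 cells, that of *Tnc* with 7, and that of *Thbs2* with 13 and 12.

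Related genes and partners were described by lists. Over all 11578 genes tested, 9.53% were called higher in matrix cells and 6.66% lower, with a median of -0.04. Of the relatives, *Tnn*, the tenascin-N gene, stood at 145 and 88.1 CPM in matrix and 0.182 and 0.125 CPM in vascular cells (log2 difference 9.82, SE 0.469, adjusted p = 0.000380). *Tgfbi*, the closest relative of *Postn*, differed by 4.86 (adjusted p = 0.000779). *Tnn* reached the filter through matrix cells alone, so of the 2 relatives tested and called, *Tgfbi* was the 1 expressed above it in both classes. *Tnr*, *Stab1* and *Stab2* were too low for the test. Of 24 receptor genes 20 were tested, of which 9 rose, 3 fell and 8 did not pass, with a median of 0.79. *Itga3* reached the filter through matrix cells alone, and *Itga4* and *Cd36* through vascular cells alone. *Itga3* (4.29), *Itga9* (2.75), the tenascin-C receptor chain, and *Egfr* (2.51) were higher in matrix cells. *Itga4* (-5.42), *Itga6* (-2.22) and *Cacna2d1* (-1.52), the calcium channel subunit that binds thrombospondins, were lower. Of the thrombospondin receptors, *Cd36* was at -5.34 (adjusted p = 0.0616) and did not pass, and *Cd47* was higher by 0.81 (adjusted p = 0.0384). *Itgav*, the periostin receptor chain, was at 0.61 (adjusted p = 0.230).

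Of 16 regulators, 3 rose, 1 fell and 12 did not pass, with a median of 0.39. Over all genes 9.53% rose and 6.66% fell. The TGF-beta receptors *Tgfbr2* (2.95) and *Tgfbr3* (1.88) and the signal protein gene *Smad3* (3.04) were higher in matrix cells, and the mesenchymal factor *Prrx1* (-0.89) was lower. *Tgfb1* was at 0.74 (adjusted p = 0.316). Of 14 matrix partners tested, 12 rose, 0 fell and 2 did not pass, with a median of 2.29. *Lox*, which encodes lysyl oxidase, differed by 4.48 and the collagen gene *Col12a1* by 3.74. *Matn4*, a matrilin gene at 7.83, reached the filter through matrix cells alone, with reads in 8 and 5 of them. *Bmp1* was at 0.49 (adjusted p = 0.0868). Of 14 genes tested that mark states of fibroblasts, 10 rose, 1 fell and 3 did not pass, with a median of 6.68. Of the 10, 5 reached the filter through matrix cells alone (*Mme* at 10.00, *Pi16* at 9.31, *Cd34*, *Clec3b* and *Col11a1*), so the count and median rest partly on that choice. The collagenase gene *Mmp13* was higher by 7.84, and the smooth muscle actin gene *Acta2* was lower, at 1001 and 1490 CPM against 5208 and 3975 CPM in vascular cells (adjusted p = 0.0135). Of 14 genes known to respond to tissue digestion, 1 rose, 1 fell and 12 did not pass, with a median of 0.41. These counts are near the shares over all genes. *Ier2* rose by 0.85 and *Myc* was at -1.01.

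How the members went together was described within each class, by Pearson's r of log2(RPKM + 1) across the cells of each tumor (84 and 82 matrix cells, 262 and 240 vascular cells). All cells of a tumor share a plate and differ in depth, so no p is given. In matrix cells 3 of 28 pairs reached an r of 0.3 in both tumors: *Tnxb* with *Thbs3* (0.49 and 0.48), *Tnc* with *Thbs2* (0.38 and 0.44) and *Tnc* with *Thbs1* (0.36 and 0.37). In ranks *Tnxb* and *Thbs3* fell to 0.23 and 0.28. *Postn* and *Thbs2* were at 0.24 and 0.49. In vascular cells none of the 28 pairs did, and *Postn* with *Thbs2* came nearest, at 0.30 and 0.25.

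Among genes read in at least 20% of the cells in each tumor, those most like *Thbs2* in matrix cells were the collagen genes *Col12a1* (0.55 and 0.66), *Col1a1* (0.60 and 0.59) and *Col5a2* (0.58 and 0.60), and 140 of 8236 genes compared reached 0.3 in both tumors. Of 15 matrix partners with reads, 9 did so, *Fn1* and *Lox* among them, and of the state genes *Lrrc15* did (0.50 and 0.63). *Postn* was most like *Ccdc80* (0.50 and 0.46), *Col5a2* (0.32 and 0.61) and *Mmp2* (0.60 and 0.33), a gelatinase gene. *Tnc* was most like the adhesion gene *Ncam1* (0.55 and 0.49), *Moxd1* (0.54 and 0.42) and *Col12a1* (0.49 and 0.44). Depth went with these genes too: r with log2 reads was 0.36 and 0.34 for *Thbs2*, 0.38 and 0.23 for *Postn*, and 0.14 and 0.15 for *Tnc* in matrix cells.

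The genes most like *Thbs1* in matrix cells were *Tpm1* (0.53 and 0.49), *Actn1* (0.49 and 0.52) and *Actb* (0.46 and 0.47), which encode tropomyosin, actinin and actin, and 104 of 8236 genes reached 0.3 in both tumors. Of the state genes, *Acta2* (0.32 and 0.49) and *Col8a1* came to 0.3 in both tumors. All 14 digestion genes had a positive r with *Thbs1* in both tumors, with means of 0.16 to 0.41 in matrix and 0.06 to 0.36 in vascular cells. The matricellular genes *Cyr61* (0.49 and 0.33 in matrix) and *Ctgf* (0.27 and 0.46 in vascular) were the highest of them. In vascular cells *Postn* had a positive r with 14 and *Tnc* with 13 of them in both tumors, so this was not particular to *Thbs1* there. In matrix cells the other members had a positive r in both tumors with 1 to 4 of the 14. These differences between members were not tested. The tissue had been digested with collagenase, and the part of digestion in the *Thbs1* level was not tested. Depth had an r of 0.46 and 0.25 with *Thbs1* in matrix cells.

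Of the 15 state genes, 4 reached 0.3 with *Tnxb* in both tumors of matrix cells: *Clec3b* (0.70 and 0.85), *Dpp4* (0.71 and 0.72), *Cd34* (0.61 and 0.45) and *Ly6c1* (0.54 and 0.40). *Pi16* (0.297 and 0.257) and *Ly6a* (0.31 and 0.27), which are known from the same adventitial fibroblasts, did not. The state genes *Col11a1* and *Lrrc15* (-0.30 and -0.37) and the collagen gene *Col12a1* (-0.50 and -0.42) ran against it. Among the genes read in at least 20% of matrix cells in each tumor, which leaves out *Clec3b* and *Dpp4*, the complement gene *C4b* (0.65 and 0.74), *Dpt*, which encodes dermatopontin (0.63 and 0.55), and *Adamtsl4* (0.55 and 0.55) were most like it. *C4b* is a neighbour of *Tnxb*, 8323 bases away. *Tnxb* was read in 10 and 9 matrix cells, so these values rest on few cells, and *Dpp4* was read in 6.02% and *Clec3b* in 12.7% of matrix cells. In vascular cells, where it was read in more cells, elastin (*Eln*, 0.34 and 0.35) was the 1 gene at 0.3 in both tumors. Within the same limit *C4b* was the 1 gene at 0.3 with *Thbs3* in both tumors (0.32 and 0.46), while *Clec3b* (0.31 and 0.54) and *Dpp4* (0.39 and 0.42), read in fewer cells, were above it on average.

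*Thbs4* followed few genes. *Pi16* was the 1 gene of 8236 at 0.3 in both tumors (0.33 and 0.32), while *Dpp4* (0.02 and -0.09) and *Clec3b* (0.03 and -0.03) were near 0. *Cilp*, a gene of cartilage, was likewise high in matrix cells, at 2262 and 1968 CPM against 2.16 and 2.04 CPM in vascular cells, but was read in more of them, 69 of 84 and 58 of 82. For *Comp* the genes in matrix cells were *Cst3* (0.50 and 0.33), *Apoe* (0.39 and 0.43) and *Sla2* (0.31 and 0.43), and they rest on 5 cells with a read in each tumor.

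**Figure D5:**
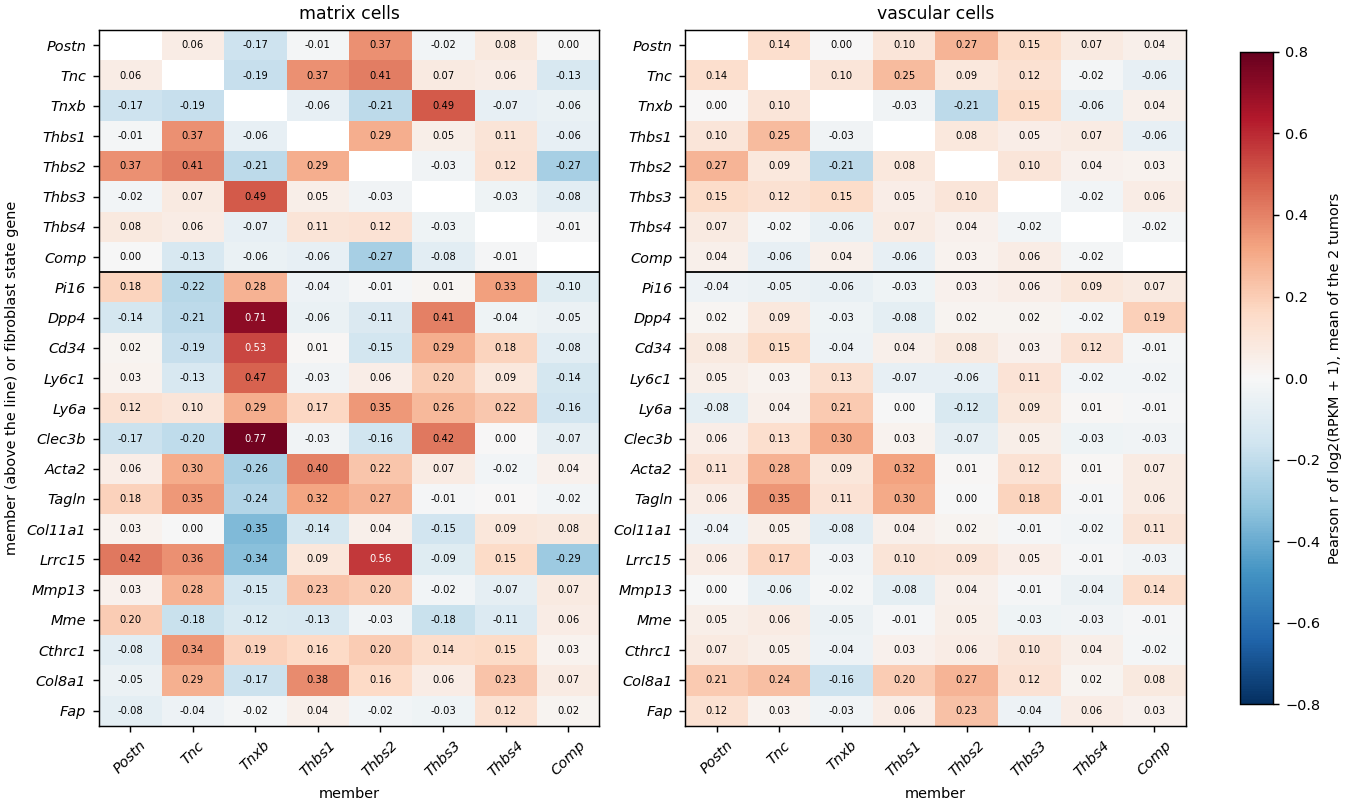
Pearson's r of log2(RPKM + 1), mean of both tumors, between the members (columns) and the members or the 15 fibroblast state genes (rows) in matrix cells (left) and vascular cells (right), red for positive and blue for negative. *Tnxb* with *Clec3b* (0.77) and *Dpp4* (0.71) and *Thbs2* with *Lrrc15* (0.56) stand out in matrix cells.

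Proliferation was the last split. Of the 502 vascular cells 56 carried reads of at least 3 of 6 cell cycle genes, 27 in tumor 1 and 29 in tumor 2. In this comparison 1.96% of 11215 genes were called by edgeR, and 0 of the 6 members tested. At an unadjusted p under 0.05 there was 1, *Tnxb*, at 2.53 and 7.36 CPM in cycling and 36.3 and 23.7 CPM in other vascular cells (log2 difference -2.58, SE 0.695, adjusted p = 0.172). The libraries of *Tnxb* did not overlap, but the cycling ones held only 18 and 50 reads of it. A read was found in 7 of 56 cycling cells (12.5%), the highest at 18.9 RPKM, and in 85 of 446 other vascular cells (19.1%). DESeq2 gave an adjusted p of 0.00954, in a fit that called 589 of 11215 genes higher and 346 lower. *Postn* (-0.20), *Tnc* (0.07), *Thbs1* (0.08), *Thbs2* (-0.46) and *Thbs3* (-0.40) had adjusted p-values of 0.411 to 0.972.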

How the data were processed

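Expression was measured by Smart-seq2 in 768 wells of 2 tumors. The authors aligned single-end reads with STAR (mm10, RefSeq annotation), and the deposited counts are whole reads per gene without normalization, for 24490 endogenous genes and 92 ERCC spike-ins. RPKM, also deposited by the authors, came from rpkmforgenes. Columns were matched to wells by title, and 0 were left over. Strand was not kept, so overlapping genes cannot be told apart.

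Members and gene lists were chosen with earlier results of these data known. Wells with at least 10000 endogenous reads (10281 to 1190516) were classed by *Rgs5* and *Dcn*. No doublet caller was run, and the 4-fold gap left out 6 of the 20 wells with both genes at 100 RPKM, so doublets may remain in the classes. Counts were summed per tumor and class and tested with edgeR 4.0.16 (TMM, glmQLFTest, Benjamini-Hochberg, mean RPKM 1 or more, threshold 0.05). The fits were also run on simulated data with log2 differences of 1, 2 and 3. The fit of matrix and vascular cells called 5.97%, 56.7% and 81.8% of the genes so changed. The fit of cycling and other vascular cells called 5.97%, 59.7% and 77.3%. A gene that did not pass is therefore not shown to be unchanged. Both libraries of a tumor come from 1 animal and are paired: deviations from class means correlated by 0.147. DESeq2 1.42.0, the tumor as a block and other scalings, filters and class rules were alternatives. Intervals are exact binomial (95%) and cover counting error only, as Smart-seq2 has no molecular identifiers. Where a p-value is given, it rests on 2 tumors. Named genes were the members, up to 3 most alike genes per member (r of at least 0.3 in both tumors, read in at least 20% of cells, in the class with the larger share of cells), and up to 3 called genes per list and direction. Other listed genes (*Cd36*, *Cd47*, *Itgav*, *Tgfb1* and *Bmp1* among them) and the genes like *Tnxb* in matrix cells were added after their values were seen.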

Additional observations from a re-analysis of the deposited data

Results flagged for a closer look

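The wells of neither class enter no comparison, and 7 members had more reads there than the limit that a count of 0 allows (3 reads). *Postn* was read in 57 of these 59 wells, *Thbs1* in 43, *Thbs2* in 40, *Tnc* in 23, *Comp* in 11, *Thbs3* in 7 and *Tnxb* in 4. *Comp* stood apart by its level: its summed level there was 287 and 123 CPM in tumors 1 and 2, against 0.457 to 6.58 CPM in the libraries of the vascular and matrix classes. In tumor 1, 1168 of the 1356 reads came from 1 well, and without the highest well of each tumor the levels were 42.9 and 86.7 CPM. *Thbs4* had 2 wells with a read, the higher at 2.26 RPKM.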

How the results depend on the processing

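Between matrix and vascular cells, the log2 fold changes of the 7 tested members kept their direction and their side of the threshold in 81 combinations of member and alternative. *Thbs3* lost its call in 2 (each cell scaled to the same total, and no gap between *Rgs5* and *Dcn*), and *Thbs1* was reversed, to -0.0372, with the class gene at 1000 RPKM. The cause was not tested. Against 1874 genes called, DESeq2 called 2933, spike-in totals 3738, and an adjusted p of 0.001 left 189 genes and 1 member. Leaving out the wells with an *Epcam* read, an alternative chosen after seeing the data, left all 6 members called. The values without the highest cell or well of each tumor were likewise chosen after seeing the data and have no test. With the tumor as a replicate block 1907 genes and 6 members were called, and no member's call changed in either comparison. Leaving out a tumor leaves 1 sample in each class and gives values without a test: *Postn* 1.57 to 1.79, *Tnc* 2.39 to 3.11, *Tnxb* 1.21 to 2.17, *Thbs1* 0.47 to 0.81, *Thbs2* 2.32 to 3.10, *Thbs3* 1.36 to 1.36 and *Thbs4* 10.47 to 10.95.

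Between cycling and other vascular cells DESeq2 called 1 member, *Tnxb*, against 0 by edgeR. Over all 11215 genes DESeq2 called 589 higher and 346 lower, against 205 and 15 by edgeR. *Thbs1* was reversed to -0.19 with the block, and *Tnc* to -0.0872 and *Thbs1* to -0.0603 with at least 4 cell cycle markers. Without 1 tumor, *Postn* ranged from -0.49 to 0.0591, *Tnc* from -0.38 to 0.43, *Tnxb* from -3.79 to -1.65, *Thbs1* from -0.86 to 0.48, *Thbs2* from -0.71 to -0.17 and *Thbs3* from -1.28 to 0.0719. *Thbs4* and *Comp* were too low for the test.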
